A study of Homo sapiens with 8 samples.

Results

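The CELF proteins (CUGBP and ELAV-like family) are RNA-binding proteins, encoded in humans by CELF1, CELF2, CELF3, CELF4, CELF5 and CELF6. They bind GU-rich stretches of RNA through RNA recognition motifs. In the nucleus they choose alternative exons, often against the MBNL proteins, and in the cytoplasm they recruit deadenylases and alter translation of bound messages. CELF1 and CELF2 are found in many tissues, whereas CELF3 to CELF6 are best known from the nervous system, and CELF6 also from kidney and testis. All 6 genes were taken by symbol, and their transcripts were summed per gene by Ensembl identifier. Of the 6, 5 had counts and were tested, among 34290 genes with a count and 19280 tested in the series. Together they have 81 annotated transcripts, of which 35 had a count.

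The cells were HEK293T, an embryonic kidney line carrying the SV40 large T antigen. The control group was 4 libraries of normal HEK293T cells, and the other was 4 libraries of HEK293T cells transfected with a construct carrying the tagged coding region of KCNQ3, a subunit of the neuronal M-type potassium channel. RNA was taken 48 hours after transfection, and the same transfection text is attached to every sample, so the sources used here do not give what the control cells received. The labels call the libraries biological replicates without naming separate cultures, so p-values measure the spread between these libraries, which may be technical.

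Depth lay between 24020097 and 30734915 estimated counts per library, and mitochondrial genes held 3.99% to 5.59% of them in controls and 4.82% to 5.84% after overexpression. KCNQ3 itself had 4, 5, 0 and 2 counts in control replicates 1 to 4 against 15283, 15874, 19709 and 18603 in overexpression replicates 1 to 4, as the labels say. Of 7 embryonic kidney markers 6 were tested, PAX8 being the one below 0.1 CPM, and their summed level was 85.7 to 89.5 CPM in controls and 83.5 to 90.5 CPM after overexpression. Of 9 neuronal markers 5 were tested, with ELAVL3 and ELAVL4 below 0.1 CPM, and the sum ran from 36.3 to 48.6 CPM in controls and from 32.2 to 50.5 CPM after overexpression. Much of that range came from TUBB3, which had 15.1, 0, 14.4 and 15.4 CPM in control replicates 1 to 4. In overexpression replicates 1 to 4 TUBB3 had 0.188, 0.165, 0.0746 and 15.7 CPM. Of the epithelial markers 6 of 7 were tested (121 to 130 CPM in all after overexpression, 131 to 150 CPM in controls, with KRT19 below 0.1 CPM). Of the fibroblast and blood markers 3 of 8 and 1 of 5 were tested, with sums of 16.7 to 21.0 and 1.91 to 2.97 CPM. No marker on these lists passed edgeR's quasi-likelihood test, which 0.301% of all tested genes passed. The epithelial sum was the one whose ranges did not overlap. Within it KRT8, KRT18, EPCAM and TJP1 had lower means after overexpression. CDH1 and MUC1 had higher means, MUC1 with 1.83 ± 0.25 CPM in controls and 2.44 ± 0.11 CPM after overexpression. The part of the epithelial sum in the results was not tested. In bulk RNA, fewer cells of a type and less RNA per cell cannot be told apart.

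The members divide by sequence into a pair and a quartet. Between the coding sequences of their leading transcripts in GENCODE 29, CELF1 and CELF2 shared 75.2% of aligned bases. The 6 pairs among CELF3, CELF4, CELF5 and CELF6 shared 73.8% to 77.5%, and the 8 pairs that cross the divide 63.4% to 66.5%. For CELF6, which had no counts, the longest coding transcript was used. The longest run of identical bases between CELF3 and any other member was 26 bases, shared with CELF1, and the longest in the family was 47 bases, between CELF4 and CELF5. The sources used here do not give the read length, and whether reads could fall wholly within such runs was not tested.

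**Figure D1:**
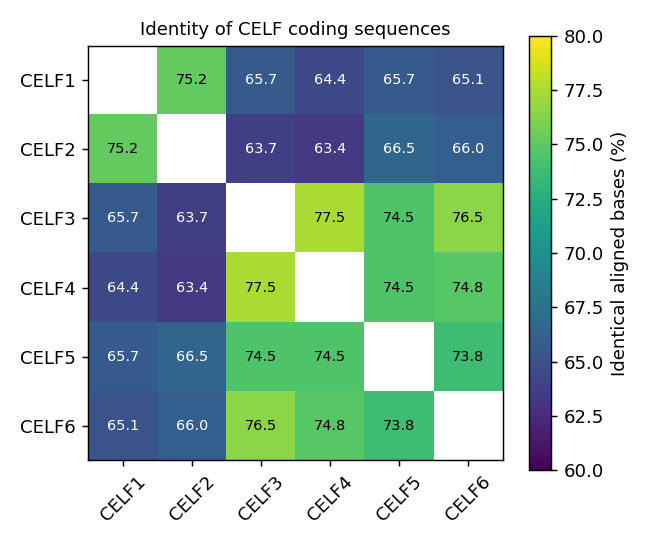
Percentage of identical bases in pairwise global alignments of the coding sequences of CELF1 to CELF6 (rows and columns). CELF1 with CELF2 (75.2%) and the 6 pairs among CELF3 to CELF6 (73.8% to 77.5%) stand above the 8 pairs that cross these groups (63.4% to 66.5%).

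CELF3, earlier named TNRC4 for its trinucleotide repeat, holds the longest CAG run of the family. Its transcript CELF3-201 has 8 CAG codons in a row in frame, which encode glutamine, where CELF5-203 has 4 and the leading transcripts of the other members have 3. The coding stretches around these runs are shown because they set CELF3 apart from its closest relatives. They run from base 1048 to 1161 of the CELF3-201 coding sequence and from base 4 to 105 of that of CELF5-203, and capitals mark runs of at least 4 CAG codons.
CELF3-201: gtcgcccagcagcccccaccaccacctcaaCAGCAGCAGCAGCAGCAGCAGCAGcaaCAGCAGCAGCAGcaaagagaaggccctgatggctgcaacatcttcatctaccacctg
CELF5-203: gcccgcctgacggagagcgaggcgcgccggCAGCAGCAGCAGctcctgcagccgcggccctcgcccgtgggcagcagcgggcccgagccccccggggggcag

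The family was singled out because CELF3 was lower after KCNQ3 overexpression, so the difference between the groups is given here as a description, with no test. CELF3 (ENSG00000159409, chromosome 1, 151702404 to 151716814, minus strand, GRCh38) had 72, 55, 55 and 54 counts in control replicates 1 to 4. It had 20, 12, 14 and 16 counts in overexpression replicates 1 to 4. Every overexpression library lay far below every control library, and the 4 values within each group were close together. In CPM (counts scaled to library size, with TMM factors) the level was 2.22 ± 0.12 in controls and 0.608 ± 0.12 after overexpression (mean ± SD, n = 4 per group). The log2 fold change of overexpression over control was −1.86 (SE 0.15), which leaves 27.6% of the control level. The summed counts, 236 and 62, gave a control to overexpression ratio of 3.64 after scaling by library size, with an exact 95% interval of 2.74 to 4.90 that covers counting error only. Among all genes tested, 22 had a lower log2 fold change than CELF3.

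The other members lay close to their control levels. CELF1 (ENSG00000149187, chromosome 11, 47465933 to 47565569), the best studied member and a regulator of exon choice and of decay of GU-rich messages, had 4483, 3508, 3310 and 3462 counts in controls and 3796, 3005, 3482 and 3083 after overexpression. Its level was 139 ± 5.2 and 131 ± 7.9 CPM, and the log2 fold change was −0.08 (SE 0.05). The groups overlapped, with overexpression replicate 1 (142 CPM) above 3 of the controls. CELF2 (ENSG00000048740, chromosome 10, 10798397 to 11336675), a close relative that also controls splicing in heart, brain and T cells, had 641, 541, 494 and 478 counts in controls and 509, 416, 532 and 481 after overexpression. Its level was 20.2 ± 0.82 and 19.0 ± 1.3 CPM, with a log2 fold change of −0.09 (SE 0.06). The CELF2 groups overlapped too, since control replicate 4 (19.0 CPM) lay among the overexpression libraries.

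CELF4 (ENSG00000101489, chromosome 18, 37243047 to 37566037), a neuronal member whose loss causes seizures in mice, had 50, 44, 52 and 55 counts in controls and 48, 37, 53 and 55 after overexpression. Both groups spanned almost the same range, with 1.912 ± 0.31 and 1.897 ± 0.31 CPM and a log2 fold change of −0.01 (SE 0.16). CELF4 was measured with fewer counts than CELF3 in the controls, 201 against 236, so both were counted at similar depth. CELF5 (ENSG00000161082, chromosome 19, 3224703 to 3297076), another brain member, had 103, 98, 87 and 102 counts in controls and 116, 91, 123 and 74 after overexpression. Its level was 3.69 ± 0.29 and 3.94 ± 0.68 CPM, a log2 fold change of 0.10 (SE 0.13), and the overexpression libraries lay on both sides of the controls. CELF6 (ENSG00000140488, chromosome 15, 72284727 to 72320129) had 0 counts in each of the 8 libraries on all 5 annotated transcripts. By counting error alone a count of 0 allows up to 3 counts, or 0.0973 to 0.125 CPM depending on the library. This is no upper limit on CELF6 RNA, because the estimates divide reads among overlapping annotations and AC009690.1, described with the neighbouring genes, covers CELF6 on the same strand and had 15 to 56 counts per library.

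**Figure D2:**
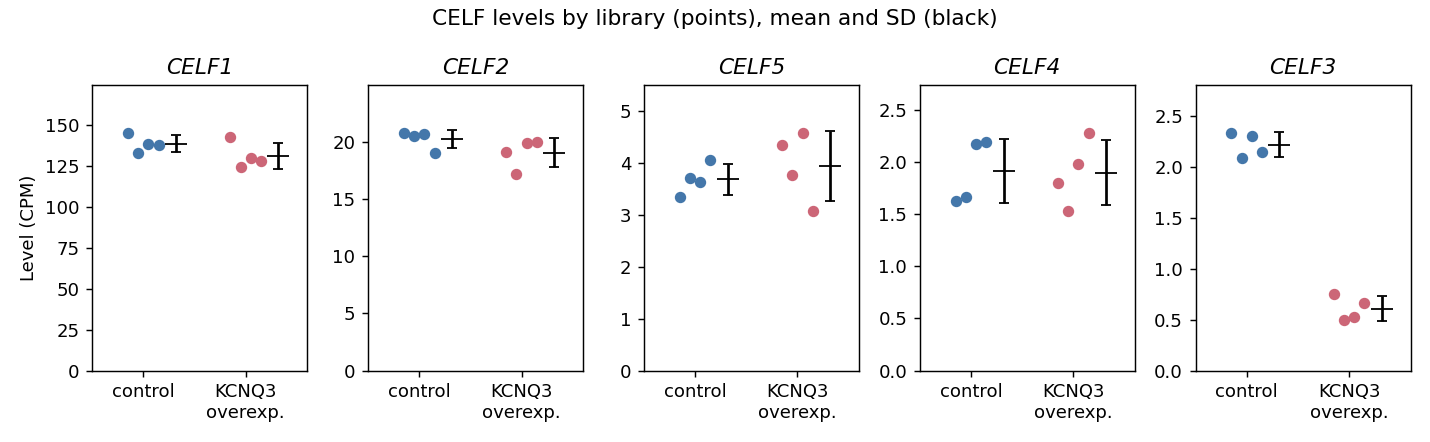
CPM of CELF1, CELF2, CELF5, CELF4 and CELF3 in each library (points), with the mean and SD of 4 libraries in black, on axes that start at 0. The groups overlap for 4 genes, while the CELF3 points sit at 2.08 to 2.33 CPM in controls and 0.496 to 0.750 CPM after overexpression.

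In the fit over all genes, 1 of the 5 tested CELF genes, CELF3, passed edgeR's quasi-likelihood test, where 0.301% of all tested genes passed. Groups did not overlap for 1 of 5 members, against 11.6% of all genes. Since this contrast led to the choice of the family, nothing is read from these counts. The family as a whole summed to 167 ± 5.3 CPM in controls and 157 ± 8.8 CPM after overexpression. CELF1 made up 83.2% ± 0.55 of that sum in controls and 83.7% ± 0.88 after overexpression, and CELF3 1.33% ± 0.038 and 0.387% ± 0.060. The ranges of the family sum were not compared by a test.

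**Figure D3:**
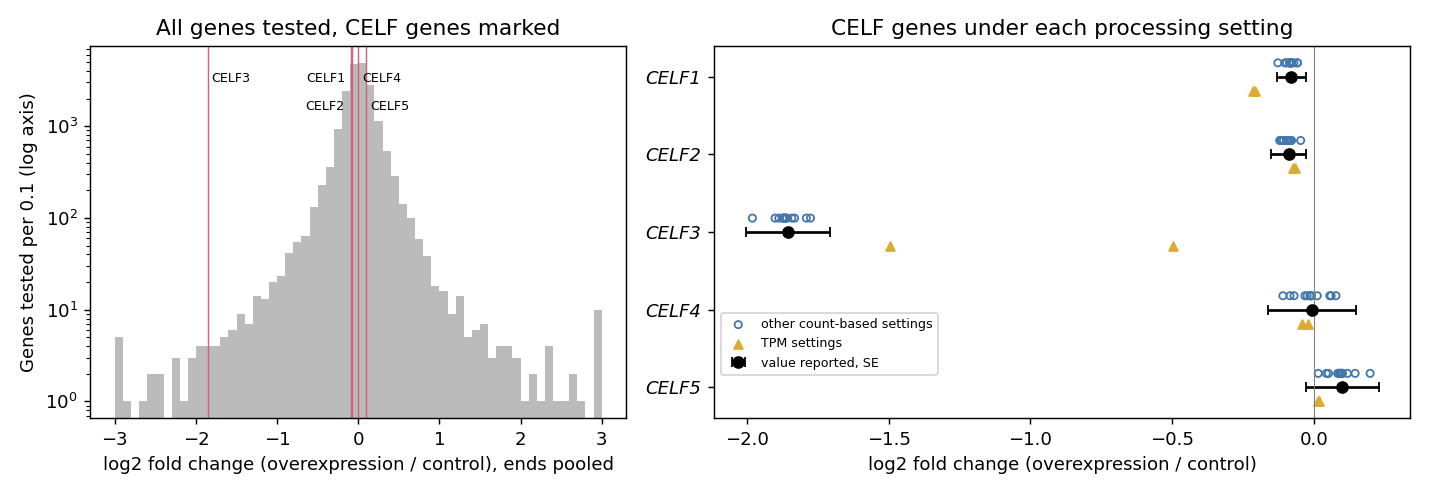
Left, number of tested genes by log2 fold change in steps of 0.1 (log axis, values beyond 3 pooled at the ends), with CELF genes marked by lines. Right, log2 fold change of each CELF gene as reported (black, SE) and under other settings of the count-based analysis (circles) or of TPM (triangles). Without each library in turn CELF3 ran from −1.98 to −1.78, and on log2(TPM + 1) it was −0.50.

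Levels of different genes can be compared per length, in TPM (a transcript abundance corrected for length and depth), which the authors deposited. In control cells the order was CELF1 (46.3 ± 4.0 TPM), CELF2 (6.89 ± 1.8), CELF5 (1.78 ± 0.044), CELF4 (0.870 ± 0.13) and CELF3 (0.649 ± 0.049). CELF1 ranked 3449 among all genes by mean TPM in controls, CELF2 11388, CELF5 15616, CELF4 17720 and CELF3 18600. Each of the 4 neighbouring pairs was separated without overlap, and each had an adjusted p of 0.02857 by the exact two-sided permutation test on log2(TPM + 0.1), the smallest that 70 assignments of 4 against 4 allow. That test treats the values as independent, although both genes of a pair were measured in the same 4 libraries. An exact two-sided sign-flip permutation test that keeps each library together, added after the data were seen, gave p = 0.125 for every pair, the smallest that 16 sign patterns allow, so the order does not pass the threshold in a paired test. The closest neighbours were CELF4 and CELF3, which differed by 0.37 on that log2 scale and came within 0.716 and 0.704 TPM of each other in control replicate 1. In that library CELF3-201 had 72 counts on 3246 annotated bases, and CELF4-203, the leading CELF4 transcript, had 50 counts on 4052. Counts over annotated length would place CELF3 above CELF4. The order of this pair therefore depends on the lengths behind the deposited TPM, which the sources used here do not give. After overexpression the order was the same, with CELF4 at 0.848 ± 0.17 and CELF3 at 0.167 ± 0.043 TPM.

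TPM and CPM did not give the same picture for CELF1. On the log2(TPM + 1) scale its difference was −0.21, from 46.3 ± 4.0 to 40.0 ± 5.0 TPM, against −0.08 from counts. Groups overlapped on both scales, since controls ran from 41.4 to 50.9 TPM and overexpression libraries from 35.8 to 47.1 TPM. For CELF2 the TPM varied by 24.8% across the 8 libraries (SD over mean), where its CPM varied by 6.01%. The gap was not particular to CELF1. HNRNPK, HNRNPH1, EIF2S3, APP and CAPZB, described below, also lay lower on log2(TPM + 1) than from counts. HNRNPK had −0.08 against 0.01 and APP −0.11 against −0.01, while CELF2 went the other way (−0.07 against −0.09). What the CELF1 gap came from was not tested. A TPM also depends on which transcript the counts were given to, because transcripts differ in length, so the transcripts were examined next.

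CELF3 came from a single message. CELF3-201 (ENST00000290583, 3246 bases and 13 exons in GENCODE 29) held 72, 53, 55 and 53 of the control counts and all of the counts after overexpression. The remaining 3 control counts were on CELF3-205, a transcript annotated as noncoding. CELF3-201 alone had a log2 fold change of −1.86 (SE 0.19) in the fit over transcripts. CELF4 likewise came from CELF4-203 (4052 bases), with 90.9% to 100% of the counts in each library. CELF5 was divided among CELF5-203 (56.0% ± 9.3 of the counts in controls and 63.7% ± 9.7 after overexpression), CELF5-206, a target of nonsense-mediated decay (29.3% ± 7.6 and 21.1% ± 14), and CELF5-201 (14.7% ± 5.4 and 15.2% ± 5.5). CELF5-206 had 37, 32, 16 and 31 counts in controls and 31, 28, 33 and 0 after overexpression.

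CELF1 was carried by CELF1-201 (4583 bases) and CELF1-204 (7666 bases). CELF1-201 had 2498, 1747, 1327 and 1734 counts in controls and 1944, 1280, 1531 and 1282 after overexpression, which is 48.9% ± 6.5 and 44.8% ± 4.4 of the gene. CELF1-204 had 1803, 1624, 1894 and 888 counts in controls and 1694, 1642, 1892 and 1606 after overexpression, or 42.3% ± 13 and 51.4% ± 4.7. Control replicate 4 stood apart, because CELF1-214 had 787 counts there and 15 to 99 in the other 7 libraries, while CELF1-204 was at its lowest. The sum over CELF1 in that library was 3462 counts, within the range of the other controls.

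The division of CELF2 changed from library to library. CELF2-205, CELF2-204, CELF2-203 and CELF2-209 each led in at least 1 library, with 43.8% to 76.0% of the counts. CELF2-205 had 374, 142, 0 and 12 counts in controls and 0, 316, 30 and 358 after overexpression. CELF2-204 had 4, 0, 366 and 265 counts in controls and 249, 36, 55 and 61 after overexpression. No CELF2 transcript had counts in all 8 libraries, although the gene sum varied little. Over all transcripts, 0 of the 15 CELF transcripts tested passed edgeR's test, which called 0.0127% of transcripts. Against 5.58% of all transcripts, 2 of the 15 had an unadjusted p below 0.05. These were CELF1-214 and CELF3-201, the message of the gene that led to the choice of the family.

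**Figure D4:**
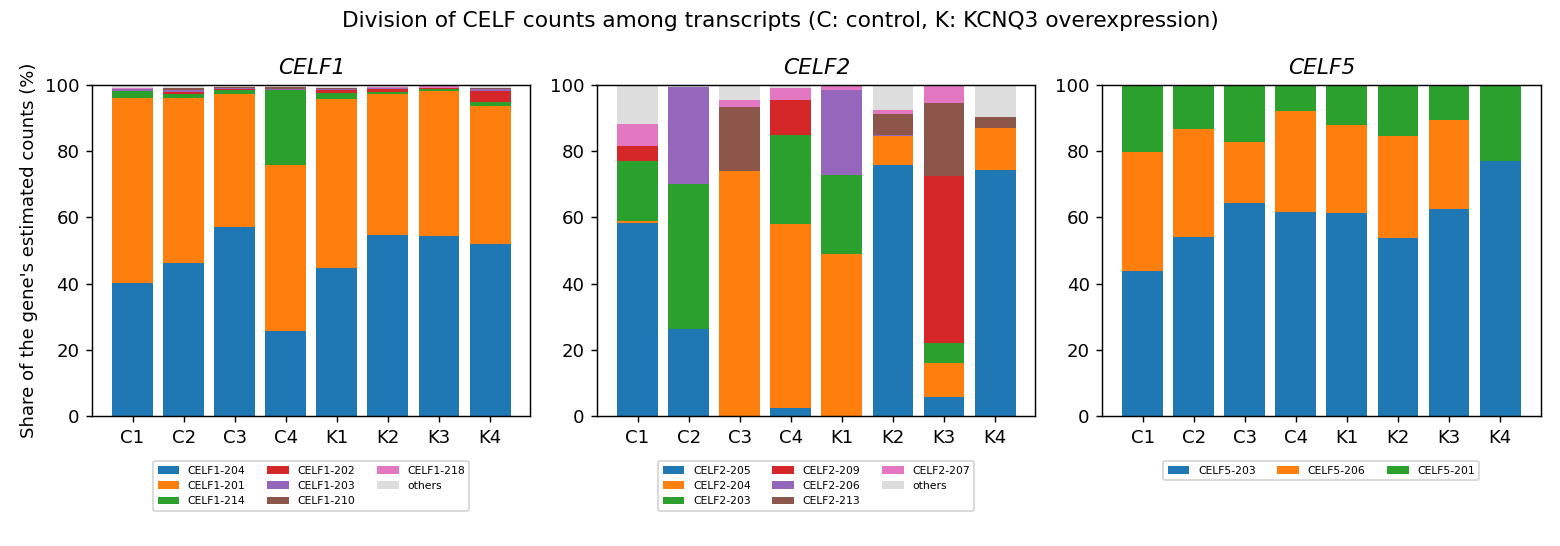
Share of each gene's estimated counts held by its transcripts, in percent, in control libraries C1 to C4 and overexpression libraries K1 to K4, for CELF1, CELF2 and CELF5. The leading CELF2 transcript changes between libraries of the same group, and CELF1-214 stands out in C4 at 22.7%.

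The surroundings of the CELF genes were compared because overlapping genes share reads when counting does not use strand, which is not stated here. CELF3 is overlapped on the opposite strand by RIIAD1 and by the antisense gene AL589765.1, which had 0 and 1 counts over all libraries. Its nearest neighbours did not pass the test. SNX27, a sorting nexin, had a log2 fold change of −0.03 (SE 0.05), TUFT1 −0.20, the mitochondrial ribosomal protein gene MRPL9 0.07, and OAZ3, an antizyme gene, 0.55. The start of CELF1 overlaps that of NDUFS3, a complex I subunit, on the other strand, which had 75.8 ± 5.3 CPM in controls and 84.8 ± 9.1 CPM after overexpression. PTPMT1, a mitochondrial phosphatase gene that overlaps it there, had 60.8 ± 3.6 and 60.5 ± 2.7 CPM. CELF2-AS1, antisense to CELF2 and too low to test, had 4, 2, 5 and 3 counts in controls and 2, 0, 2 and 0 after overexpression. AC015961.2, antisense to CELF4, had a log2 fold change of 0.07 (SE 0.25) on 7 to 15 counts per library. In the CELF6 locus, where CELF6 itself had no counts, AC009690.1, an annotated gene on the same strand that starts within HEXA and runs on over all of CELF6, had 35, 34, 31 and 56 counts in controls and 21, 18, 35 and 15 after overexpression. The log2 difference of −0.76 (SE 0.28) did not pass edgeR's quasi-likelihood test, whose adjusted p was 0.179. The antisense gene AC009690.2, opposite CELF6, had 2.17 ± 0.24 and 3.25 ± 1.0 CPM (adjusted p of 0.174 in the same edgeR fit). Counts were found for 8 of the 22 overlapping genes, the one not yet named being RN7SL652P in CELF1 with 8 counts in all. Of 46 genes that overlap or flank a CELF gene, 22 were tested and 0 passed edgeR's test, against 0.301% of all genes. Of the 22, 9 had an unadjusted p below 0.05, against 19.4% of all genes. DESeq2 called 2, NFIC and NCLN near CELF5, where it called 9.9% of the 13655 genes to which it gave an adjusted p. With limma on TPM there were 0.

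The 250 bases before the start of CELF3 are shown because CELF3 is the member that differed, beside those of CELF5, a relative that did not pass the test (RefSeq, GRCh38.p14; chr1:151716804-151717053 on the minus strand and chr19:3224411-3224660 on the plus strand). Capitals mark the GC box GGGCGG and the letters TGACATCA, a variant of the cyclic AMP response element, on either strand.
CELF3: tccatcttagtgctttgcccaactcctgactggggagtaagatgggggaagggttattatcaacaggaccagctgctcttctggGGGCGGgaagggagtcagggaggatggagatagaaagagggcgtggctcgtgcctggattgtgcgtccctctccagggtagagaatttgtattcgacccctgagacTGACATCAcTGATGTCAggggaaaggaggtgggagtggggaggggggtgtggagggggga
CELF5: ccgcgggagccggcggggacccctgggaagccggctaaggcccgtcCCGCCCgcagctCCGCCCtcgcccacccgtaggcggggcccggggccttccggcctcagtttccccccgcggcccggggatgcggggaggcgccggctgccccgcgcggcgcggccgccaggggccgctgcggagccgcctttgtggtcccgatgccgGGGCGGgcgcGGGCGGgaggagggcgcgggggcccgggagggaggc

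CELF3 and CELF5 differ widely in these windows. In the full windows of 300 bases, which include 50 bases after the start, CELF3 was 58.7% G and C with an observed to expected CpG ratio of 0.410, and CELF5 was 84.7% with a ratio of 0.913. The median over all 35116 windows was 58.7% and 0.579. GGGCGG was found in 11 of the 20 windows of CELF genes and in 44.95% of all windows. TGACATCA and its reverse complement stand next to each other in CELF3, beginning 60 and 51 bases before the start. This pair was chosen for search after the sequence had been read. The letters occurred on either strand in 2.61% of all windows and at least 2 times in 0.0626%, and in 2 of the 20 CELF windows. Besides that of CELF3, the other window belonged to CELF2, whose log2 fold change was −0.09. TGACGTCA was found in 1.85% of all windows and among the CELF genes in CELF6. The letters TGATGNAA (3.62% of all windows), CACGTG (7.26%), TTCAGCACC, the left part of the RE1 site bound by REST (0.376%), and the right part of that site (0.259%) were not in the CELF windows. These matches describe the sequence and say nothing of binding.

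Genes that work with the CELF proteins were grouped by role, by lists drawn from what is known of CELF biology. The first held the deadenylation and decapping factors through which CELF1 removes bound messages. Of 25 members, all tested, 1 was lower and 0 higher in edgeR's quasi-likelihood test, which called 0.192% of all genes lower and 0.109% higher. CNOT4, a ubiquitin ligase associated with the CCR4-NOT deadenylase, had 49.0, 43.8, 46.5 and 44.7 CPM in controls and 39.8, 34.998, 36.7 and 35.04 CPM after overexpression. It fell by 0.33 on the log2 scale (SE 0.05), the groups did not overlap, and edgeR's quasi-likelihood test gave 0.0382 as the adjusted p. The call ended in 9 of 16 alternatives, which were no scaling factor (adjusted p of 0.0514 in edgeR), limma on TPM with either pseudocount (0.235 and 0.240), and leaving out control replicate 1 (0.117), 2 (0.0868) or 3 (0.143) or overexpression replicate 2 (0.140), 3 (0.0967) or 4 (0.149) in edgeR. The list had a median log2 fold change of −0.06, against 0.01 over all genes. Of the 25, 8 were lower at an unadjusted p below 0.05, against 9.46% of all genes. CNOT10, CNOT6L, CNOT1, CNOT6 and XRN1 were among these 8, named after their values were seen. DESeq2 called these 5 and CNOT4, all lower, where it called 9.9% of 13655 genes, 602 higher and 750 lower. PARN, a poly(A)-specific ribonuclease known to bind CELF1, could not be judged, since it had 19.7, 0.0378, 3.97 and 0.0398 CPM in controls and 5.46 to 10.7 CPM after overexpression.

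The second list held other splicing regulators. Of 33 members 27 were tested and 0 passed edgeR's test (0.301% of all genes did). At an unadjusted p below 0.05, 6 were lower and 0 higher, where 9.46% of all genes were lower and 9.92% higher, and the median log2 fold change was −0.06. DESeq2 called 5, all lower (ELAVL2, MBNL1, MBNL2, QKI and RBM20), where it called 9.9% of 13655 genes, 602 higher and 750 lower. With limma on TPM there were 0. The most abundant were HNRNPK, which binds C-rich RNA (726 ± 30 and 730 ± 18 CPM), and HNRNPH1, which binds G-rich RNA (725 ± 29 and 768 ± 34 CPM). The MBNL proteins, the antagonists of CELF proteins at many exons, were looked at after the values were known. MBNL1 had 58.0 ± 3.6 CPM in controls and 51.2 ± 3.7 after overexpression (log2 −0.18, SE 0.06, adjusted p of 0.154 in edgeR). MBNL2 had 29.8 ± 1.9 and 23.7 ± 3.3 CPM (log2 −0.33, SE 0.09, adjusted p of 0.106 in edgeR), and its groups overlapped. MBNL3 moved between 4.06 and 30.4 CPM within the controls and between 4.89 and 28.6 CPM within the overexpression group. RBFOX2, PTBP1, PTBP2 and ELAVL1, which control splicing or stability of neuronal messages, had log2 fold changes of −0.08, −0.01, −0.06 and −0.00, in that order.

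The third list held the kinases, cyclin partners and eIF2 subunits known to act with CELF1. All 13 members were tested and 0 passed edgeR's test, against 0.301% of all genes. At an unadjusted p below 0.05, 2 were lower and 2 higher (9.46% and 9.92% over all genes), with a median of −0.04. DESeq2 called 3 of them, EIF2S2 and PRKCA lower and AKT2 higher, where it called 9.9% of 13655 genes, and limma on TPM 0. EIF2S3 had 683 ± 15 CPM in controls and 660 ± 21 after overexpression. EIF2S2 had 244 ± 8.1 and 217 ± 4.3 CPM without overlap (log2 −0.17, SE 0.04, adjusted p of 0.0807 in edgeR).

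**Figure D5:**
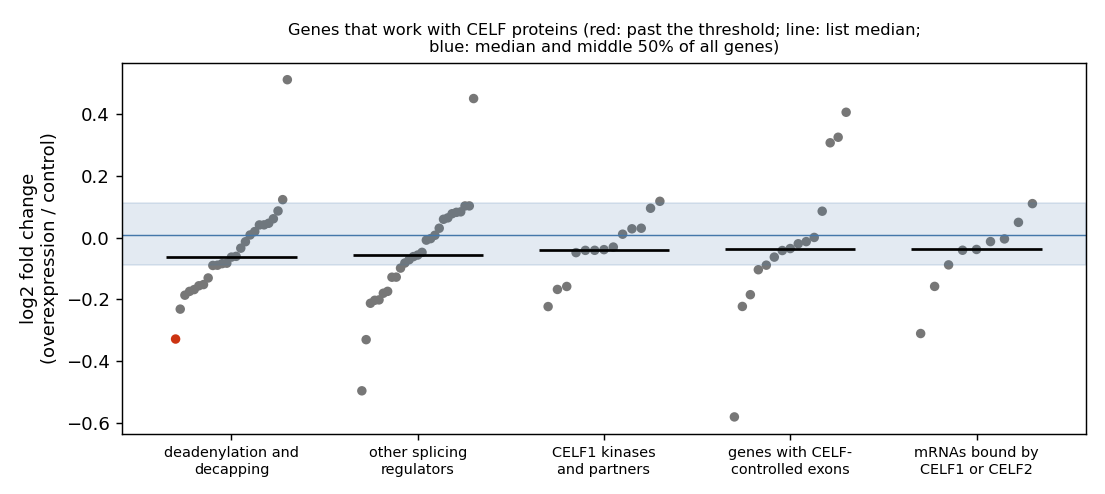
log2 fold change of each tested member of 5 lists of genes that work with CELF proteins (points, sorted within a list), with list medians as black lines and the median and middle 50% of all tested genes in blue. CNOT4, in red, is the single member past the threshold, and the list medians lie between −0.06 and −0.04.

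Readouts of CELF activity were then examined, beginning with genes whose exons CELF proteins control in heart, muscle or brain. TNNT2 and CLCN1, the cardiac troponin T and muscle chloride channel genes, were too low to test. Of the other 15, 0 passed edgeR's test for level, which 0.301% of all genes passed, and the median was −0.04. At an unadjusted p below 0.05, 3 were higher and 3 lower, against 9.92% and 9.46% of all genes. DESeq2 called TPM2 higher and MEF2D lower (9.9% of 13655 genes called), and limma on TPM called 0. APP, the amyloid precursor gene, had 400 ± 19 and 396 ± 21 CPM, and CAPZB, a capping protein of actin, 105 ± 1.7 and 112 ± 1.0 CPM. The choice between transcripts could be tested for 12 of these genes, and 0 passed edgeR's diffSpliceDGE, which called 0.383% of 9395 genes. Of the 12, 0 had an unadjusted p below 0.05, and the smallest was 0.424, for GRIN1. The share of all genes below that unadjusted p was not computed, so nothing about exon choice is read from this count. Exon choices that the authors' transcript estimates do not separate were out of reach of this test.

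The last list held messages whose stability or translation CELF1 or CELF2 controls. Of 10, 9 were tested and 0 passed edgeR's test, which 0.301% of all genes passed. At an unadjusted p below 0.05 there were 0, against 19.4% of all genes. DESeq2 called 0, where it called 9.9% of 13655 genes, and limma on TPM called 0. JUN, an immediate early transcription factor, had 412 ± 62 and 369 ± 56 CPM, and MCL1, a survival factor, 159 ± 5.8 and 159 ± 7.1 CPM. JUN carries the 11-base element bound by CELF1 in its 3′ untranslated region, printed in capitals as an example of the element with its flanks (transcript ENST00000371222, site beginning at base 595 of the region).
JUN site: gttatttctTGTTTGTTTGTttgggtatc

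This GU-rich element was searched on the transcript strand of the 3′ untranslated region of the longest coding transcript of every gene and was found in 349 genes, 1.84% of those with such a region. The longest coding transcript of each CELF gene did not hold it. Of the 301 tested, 0 passed edgeR's test, against 48 of 13238 coding genes without it (15 higher and 33 lower). At an unadjusted p below 0.05, 27 of the 301 were higher and 45 lower, where 9.92% of all genes were higher and 9.46% lower. DESeq2 called 3 higher and 24 lower, where it called 9.9% of 13655 genes, 602 higher and 750 lower, and limma on TPM called 0. The median log2 fold change was −0.03 with the element and −0.01 without it. Genes with the element have longer regions, with a median of 3661 bases against 1020. Among genes without it whose region was at least as long as that median, the median log2 fold change was −0.04, and 65.4% lay below 0, against 62.1% of genes with the element.

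Genes with the pattern most like that of CELF3 were looked for over 15080 genes of at least 1 CPM, by Pearson's r of log2 CPM. Over all 8 libraries they were ZNF654 (r = 0.99), ARVCF, PDGFC, FILIP1L and ARHGEF6 (each 0.97). ZNF654, a zinc finger gene, had a mean of 19.7 CPM in controls and 14.8 CPM after overexpression. These values follow largely from the difference between the groups. After each group's mean was subtracted, the nearest were FGF5 (0.99), NPIPA5 (0.99), CNTNAP3 (0.96), KRIT1 (0.96) and EDEM3 (0.95), none of which was among the first 5. With so few libraries and so many genes such values are a description, and they share the libraries' depth.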

How the data were processed

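RNA-seq of 4 control and 4 KCNQ3-overexpressing HEK293T libraries was analysed. Cutadapt 2.8, FastQC 0.11.5, HISAT2 2.1.0, SAMtools 1.9, StringTie 2.1.0 and the GRCh38.p13 build are named in the submitters' processing notes, but not an annotation release or strand setting. The authors deposited whole-number estimated counts for each transcript. They also deposited TPM, an abundance corrected for length and depth. Both were summed per gene through GENCODE 29, which matched 205804 of 227751 transcript identifiers and 98.7% to 98.9% of the counts in each library. Coverage-based estimates divide reads among similar transcripts, so transcript values are less certain than gene sums.

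Genes were tested with edgeR 4.0.16 (quasi-likelihood, TMM scaling, filterByExpr with a minimum count of 10 and a total of 15, Benjamini-Hochberg adjustment over 19280 genes, threshold 0.05), in R 4.3.3. Transcripts and their usage were tested with edgeR too. Alternatives were DESeq2 1.42.0, limma 3.58.1 on log2(TPM + 1) or log2(TPM + 0.1), RLE or no scaling, other filters, a replicate block and leaving out each library. The gene test was tested on simulated data. No libraries of the same group were copies of the same counts. Each of the 12 within-group pairs differed by at least 9.72 times the sampling noise (chi-square per degree of freedom). These are estimated counts, so this cannot tell separate cultures from repeated preparations of the same RNA. Intervals and floors (3 counts) cover counting error only. The members and lists were chosen with earlier results of these data known. Named genes were the CELF genes, their transcripts with at least 10% of a gene's counts, list members past the threshold (otherwise the 2 most abundant), overlapping neighbours (those with a count), and the 5 genes most like CELF3 by either measure. Others named were chosen after their values were seen. Alignments used Biopython 1.88 and permutation tests SciPy 1.17.1.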

Additional observations from a re-analysis of the deposited data

Results flagged for a closer look

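In 68 groups of 4 libraries, 5 held a value whose gap to its nearest neighbour was above Dixon's 95% critical value as a share of the group's range, and chance gives about 1 in 20. CELF1-214 held 22.7% of the CELF1 counts in control replicate 4, far above the other controls. CELF2-204 held 48.9% of the CELF2 counts in overexpression replicate 1, above the other overexpression libraries. CELF4-203 held 100% of the CELF4 counts in overexpression replicate 2, slightly above its group. CELF5-206 held 0% of the CELF5 counts in overexpression replicate 4, below its group. AC009690.1, which overlaps CELF6, was highest in control replicate 4 at 2.23 CPM.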

How the results depend on the processing

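The number of genes past the threshold, 58 with edgeR's quasi-likelihood test, was 35 with no scaling factor, 1352 with DESeq2, 7 with limma on either TPM scale and 8 to 378 when 1 library was left out. The 378 calls came without overexpression replicate 1, and 194 without control replicate 4. CELF3 kept a lower level in every alternative that tested it, at −1.98 to −1.78 when 1 library was left out, −0.50 on log2(TPM + 1) and −1.50 on log2(TPM + 0.1). DESeq2 gave it no adjusted p, and a filter on a mean of 50 counts removed it. CELF1 was −0.21 on both TPM scales. The decay list, with 1 call, had 0 with no scaling factor and on both TPM scales, 6 with DESeq2 and 0 to 3 with 1 library left out. DESeq2 called 5 splicing regulators, 3 CELF regulators, 2 exon targets, 27 genes with the GU-rich element and 2 neighbours, where edgeR called 0 of each. With 1 library left out, edgeR called 0 to 2 splicing regulators, 0 to 1 exon targets and 0 to 10 genes with the element. Transcripts past the threshold numbered 6, and 0 to 9 with 1 library left out. The order of CELF levels had an exact permutation p of 0.1 to 0.1 with 1 control left out, the smallest that 3 against 3 allow, and of 0.125 when paired within library, an alternative added after the data were seen. HNRNPK changed sign with no scaling factor (−0.011), on the TPM scales (−0.0787 and −0.0788) and with 1 library left out (−0.015 to 0.029), as did APP (−0.049 to 0.012) and MCL1 (−0.036 to 0.019) with 1 library left out. Beyond the fewer libraries or genes that an alternative leaves, the cause was not tested.

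Same-numbered libraries did not deviate together (correlations of 0.01, −0.01, −0.05 and −0.02), and 0 of the 4 correlated best with its own number. With the replicate block 86 genes, 0 transcripts and 2 genes with the GU-rich element passed. At 12 to 72 counts per library, CELF3 and CELF4 are measured less precisely than CELF1.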
